A study of Homo sapiens with 50 samples.

Results

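Pyrimidine nucleosides such as uridine and cytidine are either rescued into nucleotides or taken apart, and 8 human genes of these 2 routes were followed here in HepaRG cells exposed to herbicides. They were UPP1 and UPP2 (uridine phosphorylases), UCK1 and UCK2 (uridine-cytidine kinases), CDA (cytidine deaminase), DPYD (dihydropyrimidine dehydrogenase), DPYS (dihydropyrimidinase) and UPB1 (beta-ureidopropionase). They were taken by gene name from the deposited table, 8 of 79112 genes and loci, and all 8 were present in it. The set was chosen by measured values as well as by function: it was proposed after the FPKM of UPP1 with quizalofop-p-ethyl at 1 mM against control had been seen. Values of the members in that contrast, and in the other contrasts that use the same 5 libraries, are therefore given as a description without p-values.

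HepaRG is an established human hepatic cell line that differentiates into a mixture of hepatocyte-like and biliary-like cells. Differentiated cells were held from day 8 to day 14 of culture in a test medium with serum and dimethyl sulfoxide that contained mesotrione, isoxaflutole or quizalofop-p-ethyl at 0.1 uM, 10 uM or 1 mM, or no herbicide in the control group. The triketone mesotrione and the isoxazole isoxaflutole both act in plants on an enzyme that degrades tyrosine, whereas quizalofop-p-ethyl, an aryloxyphenoxypropionate ester, blocks fatty acid synthesis in grasses. RNA was sequenced from 5 libraries in each of the 10 groups. Values are FPKM, fragments scaled by transcript length and library size, summed over the named transcripts of a gene, and every fold change is a difference of log2(FPKM + 1), which understates changes near 0. Replicate 5 of quizalofop-p-ethyl at 10 uM, with a summed FPKM of 234909 against 541874 to 801657 in the others, was left out, so that group held 4 libraries and 49 were compared. Whether the libraries within a group are separate cultures is not stated in the labels. The p-values therefore reflect the spread between the sequenced samples, which may be technical. Summed over 18 hepatocyte and 9 biliary and progenitor markers, the control libraries held 20457 to 23980 and 636 to 727 FPKM, with no marker of either list at 0 in all of them, against 9.40 to 36.9 FPKM for 8 leukocyte markers. All cells are of 1 line, and all groups were compared with the same 5 control libraries.

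Salvage begins with uridine-cytidine kinases, which phosphorylate uridine and cytidine to their monophosphates. Uridine phosphorylase works the other way, splitting uridine reversibly into uracil and ribose 1-phosphate, and cytidine deaminase turns cytidine into uridine. Uracil then enters a reductive chain that is strong in liver: DPYD reduces the ring and sets the pace, DPYS opens it, and UPB1 releases beta-alanine, or beta-aminoisobutyrate from thymine, with ammonia and carbon dioxide. The liver is known both for breaking down circulating uridine and for replacing it.

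UPP1 lies on chromosome 7 (GRCh38, 48088628 to 48108733, plus strand) and has 2 start regions in the annotation, each feeding a first exon of its own. The bases before both starts, from the RefSeq promoter table (GRCh38.p14), are printed because transcripts are grouped by these starts below. Capitals mark CG dinucleotides, and each stretch ends before the first annotated exon base. The stretch before the upstream start is 174 bases long with 13 CG dinucleotides and 66.1% G and C. That before the downstream start lies in the first intron of the transcripts with an upstream start and holds 17 CG dinucleotides in 208 bases, with 73.1% G and C.
UPP1 upstream start, chr7:48088454-48088627, plus strand: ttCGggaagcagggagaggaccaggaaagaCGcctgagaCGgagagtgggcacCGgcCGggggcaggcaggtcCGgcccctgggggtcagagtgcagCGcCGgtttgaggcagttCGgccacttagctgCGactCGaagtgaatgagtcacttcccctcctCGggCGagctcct
UPP1 downstream start, chr7:48089004-48089211, plus strand: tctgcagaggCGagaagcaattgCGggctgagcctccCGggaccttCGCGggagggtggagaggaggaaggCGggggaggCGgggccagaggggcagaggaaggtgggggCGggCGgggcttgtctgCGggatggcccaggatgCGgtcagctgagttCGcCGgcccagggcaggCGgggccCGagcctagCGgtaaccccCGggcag

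UPP1, the uridine phosphorylase of most tissues, was the member with the widest range, from 5.18 to 324 FPKM over 49 libraries. In control its 5 libraries held 13.3, 16.2, 10.4, 8.90 and 11.7 FPKM, a mean of 12.1 ± 2.82 (SD, n = 5). With quizalofop-p-ethyl at 1 mM they held 324, 113, 108, 70.2 and 287 FPKM, a mean of 181 ± 116 (SD, n = 5). Every library of that group lay above every library of the other 9 groups, replicates 1 and 5 far above the other 3. The log2 fold change against control was 3.57 (SE 0.28). The order of the group means below it ran from mesotrione at 1 mM, 14.0 ± 4.03 FPKM (SD, n = 5), down to mesotrione at 10 uM, 9.72 ± 3.00 FPKM (SD, n = 5). Each neighbouring pair among those 9 groups overlapped. With 4 libraries of quizalofop-p-ethyl at 10 uM the mean was 13.8 ± 2.37 FPKM (SD, n = 4), within the spread of control.

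The other uridine phosphorylase gene, UPP2, known for its expression in liver, was near 0 throughout. It was above 0 in 22 of 49 libraries, its highest value was 0.144 FPKM, and it did not reach the 1 FPKM in 5 libraries that the test required. The remaining 7 members were tested.

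The 2 kinases differed. UCK2 held 16.6, 16.1, 11.7, 13.7 and 14.8 FPKM in control and 33.7, 21.7, 21.4, 20.0 and 26.3 FPKM with quizalofop-p-ethyl at 1 mM. These groups did not overlap, and replicates 1 and 5 were again the highest (log2 fold change 0.70, SE 0.10). UCK1, its widely expressed relative, stayed between 11.7 and 16.7 FPKM in all 49 libraries. Its means were 13.5 ± 1.23 in control and 14.1 ± 1.57 with quizalofop-p-ethyl at 1 mM (SD, n = 5 each), a log2 fold change of 0.06 (95% interval -0.10 to 0.21).

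**Figure D1:**
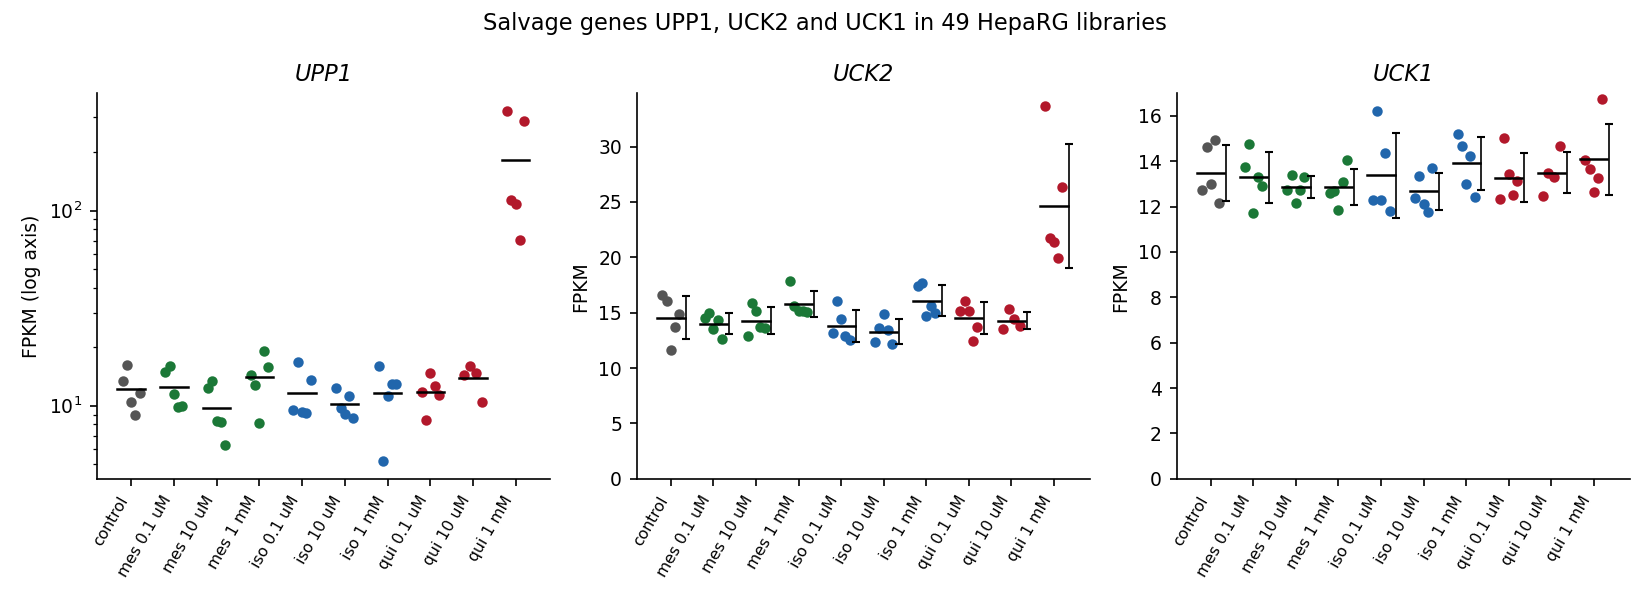
FPKM of UPP1 (log axis), UCK2 and UCK1 in each library (points) of the 10 groups, with the group mean as a line and, for UCK2 and UCK1, the SD as a bar; mes, iso and qui stand for mesotrione, isoxaflutole and quizalofop-p-ethyl. UPP1 and UCK2 stand apart in quizalofop-p-ethyl at 1 mM (70.2 to 324 and 20.0 to 33.7 FPKM), and UCK1 stays between 11.7 and 16.7 FPKM everywhere.

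CDA, on chromosome 1, held 12.3, 11.6, 9.10, 13 and 14.8 FPKM in control. With quizalofop-p-ethyl at 1 mM it held 7.83, 4.68, 4.96, 5.19 and 4.18 FPKM. The groups did not overlap, and replicate 1 was nearest to control (log2 fold change -1.06, SE 0.15).

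Along the breakdown chain the first 2 steps were lower in that group and the last was not separated. DPYD held 10.9, 12.3, 11.9, 12.6 and 14.2 FPKM in control and 2.23, 2.53, 2.68, 2.47 and 1.05 FPKM with quizalofop-p-ethyl at 1 mM (log2 fold change -2.09, SE 0.12). DPYS, on chromosome 8, held 8.23, 8.89, 9.26, 7.84 and 8.60 FPKM in control and 1.52, 0.315, 0.426, 0.559 and 0.128 FPKM (log2 fold change -2.64, SE 0.21). Neither gene's groups overlapped, and replicate 5 was the lowest library for both. UPB1 held 3.91, 3.67, 4.60, 4.48 and 3.98 FPKM in control and 1.79, 2.56, 3.56, 4.15 and 2.59 FPKM, which overlapped (log2 fold change -0.41, SE 0.33). UPB1 also scattered within most other groups, from 1.44 to 10.9 FPKM over the 49 libraries, although the 5 control libraries lay close together. On the opposite strand it is overlapped by the antisense gene ADORA2A-AS1, and on its own strand by AP000355.1. UCK1 (POMT1), UCK2 (TMCO1), DPYD (DPYD-AS1) and DPYS (DCSTAMP) are also overlapped on the opposite strand, and UCK1 varied little. The library kit keeps strand, but whether the quantification used strand is unknown here. The part of any overlap in the UPB1 scatter was not tested.

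**Figure D2:**
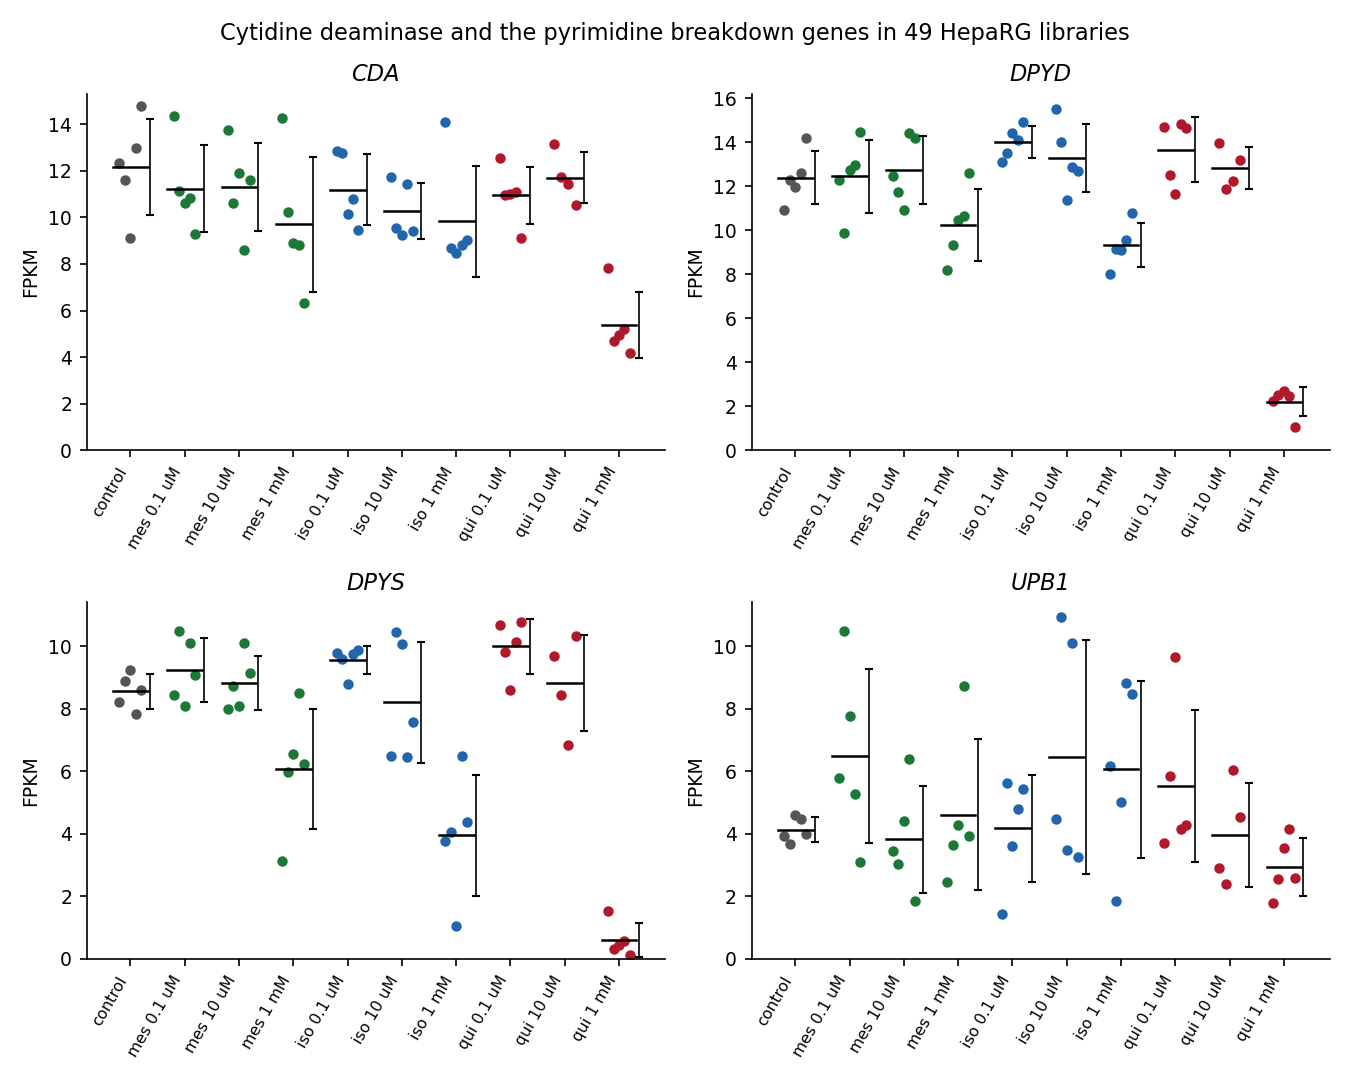
FPKM of CDA, DPYD, DPYS and UPB1 in each library (points) of the 10 groups, with the group mean (line) and SD (bar); group names as in the plot of the salvage genes. DPYD and DPYS lie at 1.05 to 2.68 and 0.128 to 1.52 FPKM with quizalofop-p-ethyl at 1 mM, while UPB1 libraries spread widely in most groups.

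In this contrast 5 of the 7 tested members passed the threshold (limma, adjusted p under 0.05 over all genes tested), 2 higher and 3 lower. Of all 24222 genes tested, assembled loci without a gene name included, 32.7% passed, 13% higher and 19.8% lower. The same 5 members had no overlap between the 2 groups, beside 23.9% of all genes. Since the contrast was known when the genes were chosen, nothing is read from these counts. Of all calls, 39.6% were higher, and 50.2% with median-ratio scaling in place of FPKM as deposited, under which the 5 members kept their direction. With all 50 libraries in the fit UCK2 no longer passed, and 4 members did. Replicates 1 and 5 of this group also lay at opposite ends of the hepatocyte markers. The summed FPKM of 18 such genes was 5708 in replicate 1 and 246 in replicate 5, with 1566 to 2685 in the other 3 libraries, against 20457 to 23980 in control. Of the 17 hepatocyte markers tested, 16 passed as lower, as did 4 of 6 biliary and progenitor markers, 4 of 6 stellate and mesenchymal markers (1 was higher), 3 of 4 leukocyte markers and the only endothelial marker tested. The part of these shifts in the members' values was not tested, and in bulk RNA fewer cells of a type and less RNA per cell cannot be told apart.

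UPP1 transcripts were also summed by start, which gives an estimated split of the level. Of 12 named transcripts, 7 began at the downstream start (48089227 to 48089376), 4 at the upstream start (48088628 to 48088727) and 1 inside the gene. The 7 downstream transcripts held 8.68 to 15.4 FPKM in control and 42.2 to 303 FPKM with quizalofop-p-ethyl at 1 mM. The 4 named upstream transcripts were listed at 0 in all 5 control libraries and at 13.2, 40.1, 3.81, 21.5 and 24.6 FPKM with quizalofop-p-ethyl at 1 mM. A further 5 transcripts without a gene name, assembled from the reads, also began in the upstream region. With these added, the upstream class held 1.02, 0.427, 2.02, 4.38 and 1.53 FPKM in control and 133, 86.3, 43.3, 77.3 and 77.4 FPKM with quizalofop-p-ethyl at 1 mM. By this estimated split the upstream class was above 0 in every control library, and both classes were higher in every library of quizalofop-p-ethyl at 1 mM than in any control library.

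As a share of all UPP1 transcripts, assembled ones included, the upstream class made up 2.57% to 33% in control and 22.7% to 61.3% with quizalofop-p-ethyl at 1 mM, ranges that overlap. It made up 16.6% to 57.0% with isoxaflutole and 3.01% to 33.1% with mesotrione, both at 1 mM. Transcripts of both classes share most exons, so the split between them is an estimate, and it was not tested. Summed with the assembled transcripts, UPP1 held 12.4 to 16.6 FPKM in control and 126 to 444 FPKM with quizalofop-p-ethyl at 1 mM.

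**Figure D3:**
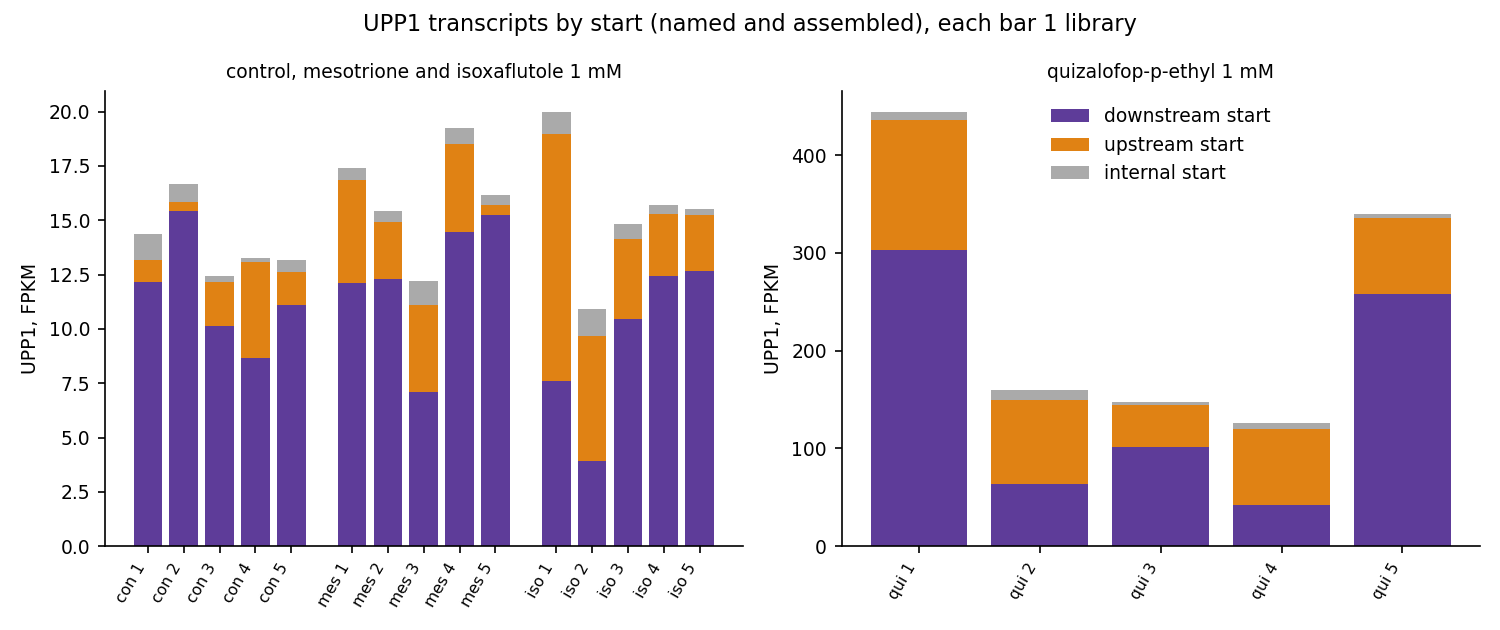
Summed FPKM of UPP1 transcripts, named and assembled, by start class in each library (1 bar each) of control (con) and of mesotrione (mes), isoxaflutole (iso) and quizalofop-p-ethyl (qui) at 1 mM; the vertical scales of the 2 panels differ. In the right panel the upstream class reaches 43.3 to 133 FPKM, against 0.427 to 4.38 FPKM in control.

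For the 6 other tested members 1 transcript held most of the level. Averaged over 49 libraries it took 96.1% of DPYD (ENST00000370192), 92.7% of UCK2 (ENST00000367879), 87.1% of CDA (ENST00000375071) and 84.4% of DPYS (ENST00000351513). The shares were 79.4% for UCK1 (ENST00000372215) and 68.4% for UPB1 (ENST00000326010). They varied by group: the UPB1 transcript took 57.6% in control, and that of DPYS 62.0% with quizalofop-p-ethyl at 1 mM. With isoxaflutole at 1 mM the lowest value of the DPYS transcript was 0 FPKM.

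A search for 3 short motifs on both strands of RefSeq windows of 250 bases before to 50 after each start covered every member but DPYS, which was not searched. TGATGNAA, the C/EBP-ATF composite element, was held by 3.62% of 35116 promoter windows. GCGTG, the core of the AHR element, was held by 36.5%, and TGACNNNGC, the core of the antioxidant response element, by 13.3%. The upstream UPP1 window held 1 match, TGACAGTGC, from 27 to 35 bases after its start, and the downstream windows of UPP1 held none of the 3. Of the 2 UPP2 windows, 1 held 1 match each of TGATGNAA and TGACNNNGC and the other none. The window of UPB1 held 1 match each of GCGTG and TGACNNNGC, that of UCK2 held 1 GCGTG match and that of UCK1 2, and those of CDA and DPYD held none of the 3. The matches describe these letters only.

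RNA of DPYS, the gene of the ring-opening enzyme, was lower with isoxaflutole at 1 mM than in control. The 5 libraries of that group held 3.79, 4.05, 1.05, 6.48 and 4.38 FPKM of DPYS. All lay below the 7.84 to 9.26 FPKM of control, and replicate 3 was the lowest. The log2 fold change was -1.06 (SE 0.21, limma adjusted p = 0.000982). DPYS was the only 1 of 7 members past the threshold, beside 2.42% of all genes tested, 1.26% lower and 1.16% higher, and 2 members, DPYS and DPYD, had no overlap with control, beside 4.86% of all genes. The call did not hold when only these 2 groups were fitted (adjusted p = 0.112) or when all 50 libraries were (adjusted p = 0.128), while the log2 fold change was -1.06 in both. Over the 8 alternatives that keep each library of both groups it ran from -1.29 to -0.86. The low value of replicate 3 rests on which transcripts are summed: with assembled transcripts added it was 4.12 FPKM, the group then ran from 4.04 to 6.48 against 8.23 to 9.61 in control, and the log2 fold change was -0.86 with DPYS past the threshold.

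DPYD, the step before it, held 8.00, 9.16, 9.08, 9.56 and 10.8 FPKM with isoxaflutole at 1 mM, just below the lowest control library of 10.9. The groups did not overlap, but the difference missed the threshold (log2 fold change -0.38, SE 0.12, limma adjusted p = 0.0737). With assembled transcripts added it passed (-0.42, adjusted p = 0.0335). CDA held 14.1, 8.69, 8.49, 8.83 and 9.05 FPKM, within or below the control range, with a log2 fold change of -0.29 (SE 0.15, limma adjusted p = 0.426). UPP1, at 15.9, 5.18, 11.1, 12.8 and 13 FPKM, reached below the control range in replicate 2, with a log2 fold change of -0.10 (95% interval -0.68 to 0.47). With assembled transcripts added UPP1 held 10.9 FPKM in replicate 2, against 12.4 to 16.6 in control, and the log2 fold change was 0.11. UCK2 (log2 fold change 0.14), UCK1 (0.04) and UPB1 (0.34) did not pass either, the lowest adjusted p of these 3 being 0.601. The summed hepatocyte markers were 10696 to 19743 FPKM here, below the 20457 to 23980 of control, with 2 of 17 genes lower and 1 higher past the threshold. The stellate and mesenchymal markers summed to 21.4 to 29.1 FPKM against 52.9 to 68.5 in control, with 3 of 6 lower, and the biliary and progenitor markers to 484 to 611 against 636 to 727, with 1 of 6 lower and 1 higher. No leukocyte marker passed (4 tested). The part of these shifts in the DPYS value was not tested.

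With mesotrione at 1 mM none of the 7 members passed the threshold (limma), beside 0.879% of all genes tested, and 3 had an unadjusted p under 0.05. DPYS held 3.13, 5.98, 6.54, 8.51 and 6.22 FPKM, with 4 libraries below every control and replicate 4 inside the control range (log2 fold change -0.48, SE 0.21, limma adjusted p = 0.412). With assembled transcripts added it passed (-0.55, adjusted p = 0.0421). DPYD held 8.19, 9.33, 10.5, 10.6 and 12.6 FPKM (log2 fold change -0.26, limma adjusted p = 0.453). CDA held 14.3, 10.2, 8.88, 8.82 and 6.33 FPKM (log2 fold change -0.32, limma adjusted p = 0.484). Both overlapped control. UPP1 held 14.3, 12.8, 8.15, 19.1 and 15.7 FPKM, on both sides of control (log2 fold change 0.18, 95% interval -0.39 to 0.75). The hepatocyte markers summed to 12737 to 21055 FPKM here, with 2 of 17 lower and 1 higher past the threshold. The biliary and progenitor sum was 425 to 563 FPKM (2 of 6 lower), the stellate and mesenchymal sum 21.6 to 33.8 FPKM (2 of 6 lower) and the leukocyte sum 8.82 to 22.3 FPKM (1 of 4 lower). The part of these in the members' values was not tested.

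**Figure D4:**
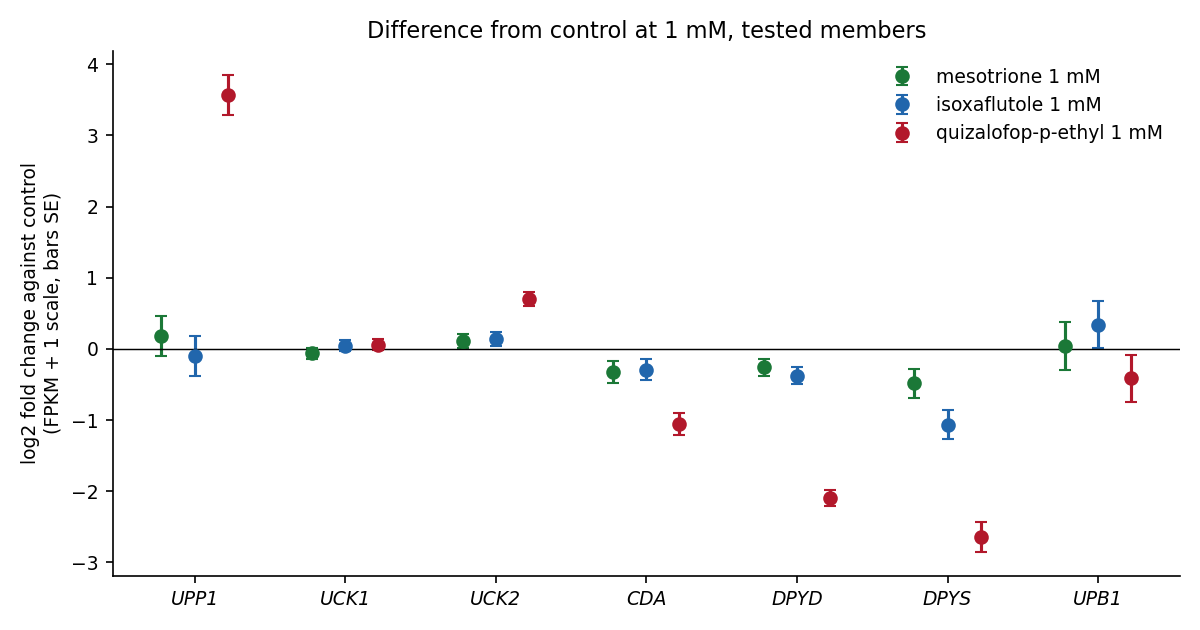
Log2 fold change against control (vertical axis, FPKM + 1 scale) with its SE for the 7 tested members at 1 mM of each herbicide. UPP1 is separated in quizalofop-p-ethyl alone (3.57, against 0.18 with mesotrione and -0.10 with isoxaflutole), and DPYS is below 0 in all 3 groups (-2.64, -1.06 and -0.48).

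Below 1 mM no member moved past the threshold with any herbicide. Over 6 comparisons the 42 log2 fold changes ran from -0.31 to 0.47, the lowest limma adjusted p was 0.961, and no unadjusted p was under 0.05. Among all genes 0% were called in 5 of these comparisons and 0.00826% with quizalofop-p-ethyl at 10 uM. DPYS, for example, had means of 8.22 ± 1.94 with isoxaflutole and 8.82 ± 0.868 with mesotrione at 10 uM (SD, n = 5 each), and 8.83 ± 1.54 with quizalofop-p-ethyl (SD, n = 4), against 8.56 ± 0.552 in control.

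The herbicides were also compared with each other at equal concentration, in 9 direct comparisons with p-values adjusted over all genes in each. Between isoxaflutole and mesotrione at 1 mM, which share a plant target and differ in ring structure, none of 7 members passed (limma), beside 0.256% of all genes, and 1 had an unadjusted p under 0.05. That member was DPYS, lower with isoxaflutole by a log2 difference of -0.58 (95% interval -1.0 to -0.17, limma adjusted p = 0.434). The interval of the UPP1 difference ran from -0.85 to 0.29, that of DPYD from -0.35 to 0.12 and that of CDA from -0.27 to 0.34.

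The comparisons of quizalofop-p-ethyl at 1 mM with the other 2 herbicides use the 5 libraries whose UPP1 values led to the choice of the set. They are described without p-values, and where calls past the threshold are given, these are descriptions too. Against mesotrione at 1 mM, DPYD was lower by a log2 difference of -1.83 (SE 0.12) and DPYS by -2.16 (SE 0.21), with no overlap of libraries. CDA was lower by -0.73 (SE 0.15), although replicate 1 with 7.83 FPKM exceeded the lowest mesotrione library. UCK2 was higher by 0.59 (SE 0.10), with no overlap, and the difference of UPP1 was 3.39 (SE 0.28). These 5 members passed the threshold beside 30.2% of all genes tested, and 4 of them had no overlap, beside 21.3%. UPP1 is in both counts by choice, and nothing is read from them.

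Against isoxaflutole at 1 mM, the log2 differences were -1.72 for DPYD (SE 0.12), -1.58 for DPYS (SE 0.21), -0.77 for CDA (SE 0.15), 0.56 for UCK2 (SE 0.10) and 3.67 for UPP1 (SE 0.28). The same 5 members passed, beside 29.7% of all genes, and 4 had no overlap, beside 20.8%. UPP1 was again among them by choice, and nothing is read from these counts either. The DPYS libraries overlapped only through isoxaflutole replicate 3, whose value rises with the assembled transcripts. UPB1 missed the threshold in both, with log2 differences of -0.76 (SE 0.33) against isoxaflutole and -0.45 (SE 0.33) against mesotrione. UCK1 also missed it in both, with 0.01 (95% interval -0.14 to 0.17) and 0.12 (-0.04 to 0.27). When all 50 libraries were fitted, UCK2 and CDA lost their calls in both comparisons, leaving 3 of 7 members in each. At 10 uM and 0.1 uM the 42 differences between herbicides ran from -0.53 to 0.55, with a lowest limma adjusted p of 0.917 and no member called. Of all genes, 0.0124% were called between quizalofop-p-ethyl and mesotrione at 10 uM, 0.00413% between quizalofop-p-ethyl and isoxaflutole at 10 uM, and 0% in the other 4 comparisons.

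Correlations between members across the 49 libraries, of log2 values that share libraries and groups, are descriptions. DPYD and DPYS had a Pearson r of 0.92, and 0.69 over the 44 libraries without quizalofop-p-ethyl at 1 mM. UCK2 and DPYD ran opposite (r of -0.88, and -0.68 without that group). CDA had r = 0.73 with DPYD and 0.72 with DPYS, which were 0.03 and 0.12 without that group. UPP1 and UCK2 had r = 0.85, which was 0.21 without that group, and UPP1 and DPYD had -0.91, which was -0.16. These relations of CDA and UPP1 were thus far weaker outside that 1 group.

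The candidates were 11740 tested genes with an official symbol and a mean of at least 1 FPKM, the tested members included. Those most like UPP1 over the 49 libraries were DUSP15 (r of 0.95), TRIB3 (0.94), PPP1R15A (0.94), MAFF (0.94) and DDIT4 (0.94). This order reflects the quizalofop-p-ethyl values that led to the choice of UPP1. Without that group at 1 mM, r over the other 44 libraries was 0.21 for DUSP15, 0.28 for TRIB3, 0.21 for PPP1R15A, 0.03 for MAFF and 0.30 for DDIT4. DUSP15, a phosphatase, held 0.185 to 0.289 FPKM in control and 6.24 to 12.9 with quizalofop-p-ethyl at 1 mM. Its control values lay under the 1 FPKM of the filter, so its place among the candidates may itself rest on that group. TRIB3, a pseudokinase, held 10.3 to 12.3 FPKM in control and 178 to 327 with quizalofop-p-ethyl at 1 mM. PPP1R15A, which directs a phosphatase to the initiation factor eIF2alpha, held 15.5 to 19.4 and 94.4 to 225 FPKM. UCK2 was most like BCAR3 (0.93) and CSRNP1 (0.92), and CDA most like SLPI (0.90) and SERPINA3 (0.89), both secreted protease inhibitors. DPYD was most like ADH6 (0.97), an alcohol dehydrogenase, and MTTP (0.97), which loads lipid onto apolipoprotein B. DPYS was most like ACSM2B (0.94), an acyl-CoA synthetase of medium-chain acids. Over the 44 libraries without quizalofop-p-ethyl at 1 mM, r with UCK2 was 0.73 for BCAR3 and 0.69 for CSRNP1. With CDA it was 0.76 for SLPI and 0.73 for SERPINA3, with DPYD 0.78 for ADH6 and 0.83 for MTTP. With DPYS it was 0.79 for ACSM2B. For UCK1 and UPB1 the highest values over 49 libraries were 0.64 (CCDC167) and 0.62 (LRP3), and 0.57 and 0.60 without that group.

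The rest of pyrimidine metabolism was taken from lists of 50 genes, of which 45 were tested. With quizalofop-p-ethyl at 1 mM, 4 passed as higher and 20 as lower, beside 13% and 19.8% of all genes, and the median log2 fold change was -0.21 against -0.08 over all genes tested. With isoxaflutole at 1 mM, 2 of the 45 passed as lower, beside 1.26% of all genes. With mesotrione 1 passed, also as lower, beside 0.879% of all genes called in either direction.

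Downstream of UPB1, a list of 5 genes related to beta-alanine and beta-aminoisobutyrate was followed, of which 4 were tested. With isoxaflutole at 1 mM 2 of them passed as lower, with quizalofop-p-ethyl 3, and with mesotrione none. Of all genes, 1.26% passed as lower with isoxaflutole and 19.8% with quizalofop-p-ethyl. ABAT, the mitochondrial aminotransferase that takes beta-alanine, was at 16.0 ± 0.762 FPKM in control, 7.65 ± 1.73 with isoxaflutole and 0.748 ± 0.356 with quizalofop-p-ethyl (SD, n = 5 each). Its log2 fold change was -1.0 with isoxaflutole (SE 0.22, limma adjusted p = 0.00528) and -3.30 with quizalofop-p-ethyl. AGXT2, which transaminates beta-aminoisobutyrate, ran from 2.02 to 4.19 FPKM in control and from 0.0837 to 1.66 with isoxaflutole (log2 fold change -1.06, SE 0.27, limma adjusted p = 0.0242). With quizalofop-p-ethyl it was at most 0.029 FPKM. ALDH6A1, the semialdehyde dehydrogenase that follows, passed with quizalofop-p-ethyl (-1.01).

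De novo synthesis makes uridine monophosphate by a route apart from salvage. With quizalofop-p-ethyl at 1 mM 1 of its 3 genes passed as lower, beside 19.8% of all genes. Of CAD, DHODH and UMPS, which build uridine monophosphate, DHODH passed as lower with quizalofop-p-ethyl (3.15 ± 0.171 against 6.13 ± 2.26 FPKM, SD, n = 5 each, log2 fold change -0.73), and the other 2 did not pass. None of the 3 passed with mesotrione or isoxaflutole. Among 22 tested genes of nucleotide interconversion, 10 were lower and 1 higher with quizalofop-p-ethyl, beside 19.8% and 13% of all genes. The 4 with the largest changes were RRM2, the regulated subunit of ribonucleotide reductase (39.6 ± 7.81 in control to 1.95 ± 1.43 FPKM, log2 fold change -3.93), TK1, cytosolic thymidine kinase (-3.49), NME4, a mitochondrial nucleoside diphosphate kinase (-1.74), and TYMS, thymidylate synthase (-1.21). NME4 was the gene that passed with mesotrione at 1 mM (17.1 ± 1.84 to 11.5 ± 2.99 FPKM, SD, n = 5 each, log2 fold change -0.56, limma adjusted p = 0.0214).

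Of 4 nucleoside transporters tested, 3 were lower with quizalofop-p-ethyl at 1 mM, namely SLC29A2 (log2 fold change -1.32), SLC29A4 (-0.97) and SLC29A1 (-0.96), the equilibrative carrier ENT1. Of 6 pyrimidine nucleotidases, which release nucleosides from monophosphates, NT5E, the ecto-5'-nucleotidase CD73, was lower (-1.55), as was NT5C3B (-0.24). Of 6 genes that make or convert UDP-sugars, 3 were higher, among them UAP1 (0.62) and UXS1 (0.34), and UGDH, which makes UDP-glucuronate, was lower (-0.99). None of these 16 genes passed with mesotrione or isoxaflutole at 1 mM, beside 0.879% and 2.42% of all genes. With quizalofop-p-ethyl at 1 mM 19.8% of all genes were lower and 13% higher, and nothing is read from counts in lists this short.

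**Figure D5:**
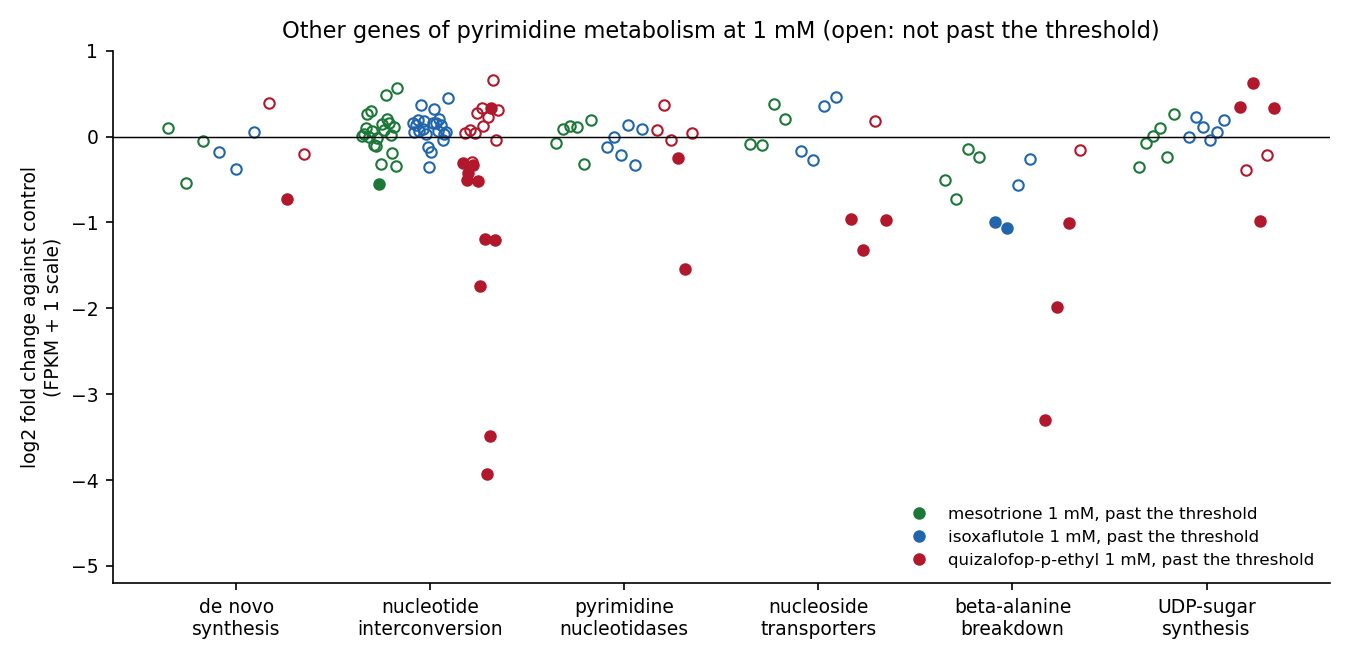
Log2 fold change against control (vertical axis, FPKM + 1 scale) of the 45 tested genes of 6 lists of pyrimidine metabolism at 1 mM of each herbicide; filled points passed the threshold, open points did not. Quizalofop-p-ethyl holds 20 of the filled points below 0 and 4 above, isoxaflutole 2 and mesotrione 1, all below 0.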

How the data were processed

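Gene expression was measured by RNA sequencing in 50 libraries of HepaRG cells. Per the labels' protocols, libraries were made from total RNA with a strand-keeping kit after ribosomal RNA removal and were sequenced as paired reads in 3 pools, with no record here of the pool of each library. GRCh38, HISAT, HISAT2 and StringTie appear in the submitters' processing notes, without versions or roles.

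The authors deposited 1 table of FPKM values for 239290 transcripts, 199173 with a gene name and 40117 without. Other values in the deposited table, 24 in all, were slightly below 0 and were set to 0, and 1 broken record was rejoined. FPKM is relative within a library, so abundant RNA lowers all other values. The files give no depth. An estimate was made from the spacing of low values of single-exon transcripts and gave 7160000 to 34280000 fragments in 49 libraries, so values well under 1 FPKM rest on few fragments.

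Transcript FPKM were summed by gene name, and those of transcripts without a gene name by locus. A gene or unnamed locus was tested where 5 or more of the 49 libraries reached 1 FPKM. This left 24222, all called genes here, so shares of all genes include unnamed loci. With unnamed transcripts added to a gene where it alone is named at their locus, 19614 were tested. At 1 mM against control 8507 of these passed with quizalofop-p-ethyl, 880 with isoxaflutole and 365 with mesotrione. Values, as log2(FPKM + 1), went into limma 3.58.1 under R 4.3.3 (1 mean per group, moderated variance with trend and robust settings, Benjamini-Hochberg adjustment within a comparison, threshold 0.05), and the fit was tested on simulated data. Libraries of a group correlated at 0.886 to 0.931, and no 2 columns were equal. Groups came from titles. The labels give no replicate numbers, so libraries were numbered within a group in accession order.

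The members, pathway lists, marker lists and motifs were chosen with earlier results of these data known. All 8 members are named, of a list up to 4 genes past the threshold with the largest change, and of the genes most alike 5 for UPP1 and 2 for each other tested member, not all of which are printed. Each result was recomputed with median-ratio scaling, without the filter, with a pseudocount of 0.1, from the 2 groups alone, from all 50 libraries, with a block of 5 runs of title numbers, with 18349 unnamed transcripts added to a gene where it alone is named at their locus, with another variance model, and with each library left out in turn. Tables were read with Python 3.11.15 and pandas 2.3.3, and figures drawn with matplotlib 3.10.9. No protein sequences were used here.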

Additional observations from a re-analysis of the deposited data

Results flagged for a closer look

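In 5 of 70 groups of libraries examined over the 7 tested members, 1 library stood far from the others by Dixon's criterion, where chance alone gives about 1 in 20. UCK2 was 17.8 FPKM in replicate 1 of mesotrione at 1 mM, with 15 to 15.6 in the other 4. CDA was 14.1 FPKM in replicate 1 of isoxaflutole at 1 mM (8.49 to 9.05 in the others) and 7.83 FPKM in replicate 1 of quizalofop-p-ethyl at 1 mM (4.18 to 5.19). In every group, however, the library of the first run of title numbers (9 to 18) held the most CDA. Control replicate 5 (14.8 FPKM) and mesotrione at 1 mM replicate 1 (14.3 FPKM) are examples. The flagged CDA libraries belong to that run, and the source of this shared pattern was not tested. DPYD was 1.05 FPKM in replicate 5 of quizalofop-p-ethyl at 1 mM (2.23 to 2.68), the library with the fewest hepatocyte marker transcripts (246 FPKM in sum). DPYS was 8.78 FPKM in replicate 3 of isoxaflutole at 0.1 uM (9.61 to 9.90).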

How the results depend on the processing

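Recomputed counts of members past the threshold stayed within 1.5 times the value reported in 315 fits and did not in 6. The count for mesotrione at 1 mM against control went from 0 to 1 with unnamed transcripts added. For isoxaflutole at 1 mM against control it went from 1 to 0 with the 2 groups alone and with 50 libraries, and to 2 with unnamed transcripts added. For quizalofop-p-ethyl against mesotrione and against isoxaflutole at 1 mM it went from 5 to 3 with 50 libraries. The 50-library fit includes the library left out elsewhere, and the cause of each change was not tested.

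Signs turned in 12 fits, none of a value past the threshold. UPP1 with isoxaflutole at 1 mM against control became 0.11 with unnamed transcripts added and ran from -0.23 to 0.13 with 1 library left out. With 1 library left out, UPB1 with mesotrione against control ran from -0.18 to 0.19, UCK1 with quizalofop-p-ethyl from -0.0041 to 0.091 against control and from -0.046 to 0.048 against isoxaflutole, and, between isoxaflutole and mesotrione, UCK2 from -0.0062 to 0.070 and CDA from -0.092 to 0.17. The difference of UPB1 between quizalofop-p-ethyl and isoxaflutole passed without isoxaflutole replicate 2, at -1.05.

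Numbers of all genes called moved more. For isoxaflutole at 1 mM against control 585 became 296 with the 2 groups alone, 80 with 50 libraries and 880 with unnamed transcripts added. For mesotrione 213 became 88, 26 and 365, and for quizalofop-p-ethyl 7926 became 4645 with 50 libraries. Taking the 5 runs of title numbers as a replicate block changed no member's call. No label ties a run to a culture, batch or day. Deviations within a run correlated at 0.0172 on average and -0.123 at the lowest. The mean within single runs went from -0.000317 to 0.048 and was highest in the first, in which CDA was highest in every group. Of 49 libraries 26, more than an even spread over 5 runs would give but not all, correlated best with their own run, which is a hint from the data and not from the design. Depth limits the low values: DPYS at 1 mM of quizalofop-p-ethyl, at 0.128 to 1.52 FPKM, and UPP2, at most 0.144 FPKM, rest on few fragments.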
